A study of Mus musculus with 4 samples.

Results

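Fatty acid oxidation and ketogenesis were described here through 39 genes, taken as the rows of the count table whose Ensembl identifier carries one of 39 mouse gene symbols. The table held 46603 identifiers in all, and 13001 of them had enough reads to be tested. All 39 genes passed that filter. By the usual place of their products, 24 of the genes were counted as mitochondrial and 11 as peroxisomal, and Acad11, Acot1, Acot12 and Vnn1 were put in neither list. The rule that takes them uses symbols and no measured value, though the list was drawn up with earlier results of these data known.

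Liver RNA came from 4 male HuR flox/flox mice on a C57BL/6 J background, all of which carried the floxed alleles of Elavl1, the gene of the RNA-binding protein HuR. The 2 control mice (1 and 2) had received AAV8-TBGP-GFP, and the 2 HuR hKO mice (3 and 4) AAV8-TBGP-Cre, where TBGP is the thyroxine-binding globulin promoter, which drives Cre in hepatocytes while the other liver cells keep HuR. Every mouse had WDSW, a Western diet given with sugar water, over 4 weeks, so each value belongs to a WDSW-fed liver. Ages were matched between the groups and are not given in the sources used here.

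In the liver, long-chain fatty acids are activated to acyl-CoAs and passed into mitochondria by the carnitine shuttle. Each round of β-oxidation then runs through an acyl-CoA dehydrogenase, a hydratase, a hydroxyacyl-CoA dehydrogenase and a thiolase, and the acetyl-CoA it yields is turned into ketone bodies during fasting. Peroxisomes hold a parallel set of enzymes that shortens very long, branched and bile acid side chains and hands the products on. Many of these genes are known targets of the nuclear receptor PPARα, which binds, as a dimer with RXR, a pair of AGGTCA half-sites spaced by a single base.

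The 4 libraries held between 13032095 and 19715577 counted reads, and the deepest was that of mouse 4. Libraries of the same group differed by more than sampling noise, with a chi-square of 21.2 per degree of freedom between mice 1 and 2 and of 24.2 between mice 3 and 4. CPM here are read counts relative to library size, scaled by the trimmed mean of M-values (TMM). Elavl1, the targeted gene, stood at 28.4 and 25.9 CPM in control mice 1 and 2. In mice 3 and 4 it stood at 37.7 and 34.4 CPM, thus higher in both, and the groups did not overlap. Its log2 fold change was 0.41 ± 0.14 (SE, n = 2 per group, edgeR quasi-likelihood test, unadjusted p = 0.0160, adjusted p = 0.545). These counts cover the whole gene, so that exons outside the floxed part are included, and because its level goes against the label the mice are called "labelled HuR hKO" below. Whether labels and libraries were matched rightly could not be settled from these values, and if the groups were exchanged, every direction given below would turn. The hepatocyte markers summed to between 77318 and 87713 CPM, with both extremes in mice labelled HuR hKO. Neutrophil markers summed to 1.49 to 3.06 CPM, and Ly6g and Mpo did not pass 3 reads in any mouse. The 5 erythroid markers were all higher in the mice labelled HuR hKO, and their sum was 363 and 450 CPM in the controls against 488 and 711 CPM. Of these, 3 had an unadjusted p under 0.05 (edgeR), Hbb-bs with a log2 fold change of 0.84, Hbb-bt with 0.74 and Alas2 with 0.43. Of all genes, 4.04% were higher at that p. The 11 macrophage markers summed to 258 and 264 CPM in the controls against 293 and 279 CPM, and the 6 endothelial markers to 179 and 158 CPM against 206 and 186 CPM. Of the macrophage markers, 7 had a log2 fold change above 0. Adgre1 (-0.20), Marco (-0.92), Cd14 (-0.17) and Csf1r (-0.01) lay below it. All 6 endothelial markers lay above 0, and 0 markers of either list had an unadjusted p under 0.05 (edgeR). Of the 7 stellate cell markers, 5 lay above 0, and Acta2 (-0.83) and Des (-0.30) lay below it. An unadjusted p under 0.05 (edgeR) was reached by 2, Col1a1 with a log2 fold change of 0.63 and Col3a1 with 0.59. Both were highest in mouse 4, at 18.7 and 44.8 CPM, against 11.9 and 31.2 CPM in mouse 3. The 7 markers summed to 200.3 and 186 CPM against 199.5 and 257 CPM. The 6 adipocyte markers summed to 69.7 and 129 CPM against 64.7 and 106 CPM, thus higher in mice 2 and 4, nearly all of it from Cfd, and the other 5 stayed at or under 0.743 CPM. The 7 lymphocyte markers summed to 4.06 to 29.5 CPM and the 5 cholangiocyte markers to 27.5 to 52.5 CPM, and both sums overlapped between the groups. Of the 4 cholangiocyte markers tested, 2 lay above 0, and Spp1 (0.51) had an unadjusted p under 0.05 (edgeR). Krt19 (-2.38) and Epcam (-0.56) lay below 0. The part of these cell types in the differences below was not tested, and in whole liver, fewer cells of a type and less RNA per cell cannot be told apart.

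Of the 34 members with a RefSeq window of 250 bases before to 50 bases after the gene start (GRCm38.p6), 5 held a match to the direct repeat of AGGTCA with a 1-base spacer when up to 2 mismatches over both strands were allowed. That is 14.7% of them, against 4.40% of the 27025 genes with a window. Base composition differed too, with a median of 58.8% G and C in the 250 bases before the start, against 52% for all genes. Its part in these shares was not tested. The members with a match were Etfa, Echs1, Acox2, Acot4 and Acot12, and only that of Acot12 had 1 mismatch. The match of Acox2 lay after the start, in the second of its windows. No window was listed for Decr1, Hsd17b4, Acaa2, Acad9 or Vnn1. The 250 bases before the starts of Acot4 (chr12:84038129-84038378, plus strand) and Acot12 (chr13:91741271-91741520, plus strand) are shown with the match in capitals, since they hold the matches in a pair of thioesterase genes.

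Acot4: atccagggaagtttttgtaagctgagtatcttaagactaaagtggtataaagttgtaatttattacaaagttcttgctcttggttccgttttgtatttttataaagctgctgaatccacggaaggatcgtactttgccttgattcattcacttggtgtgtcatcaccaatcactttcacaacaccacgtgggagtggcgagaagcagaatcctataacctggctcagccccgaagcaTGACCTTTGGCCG
Acot12: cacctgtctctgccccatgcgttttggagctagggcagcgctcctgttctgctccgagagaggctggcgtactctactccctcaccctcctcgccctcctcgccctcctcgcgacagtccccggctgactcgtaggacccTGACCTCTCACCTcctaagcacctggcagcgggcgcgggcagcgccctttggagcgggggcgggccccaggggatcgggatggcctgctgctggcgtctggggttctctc

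Acad10 and Acad12 are neighbours on the minus strand of chromosome 5, Acad12 at chr5:121596775-121618938 and Acad10 at chr5:121621026-121660514, and the 250 bases before their starts resembled each other more than those of any other pair of members. Runs of at least 12 identical bases covered 116 of the 250 bases before Acad10, and the longest run held 25 bases. Among all 561 pairs of members, the other pairs reached at most 24 bases in such runs and a longest run of 17. The windows (chr5:121660511-121660760 and chr5:121618939-121619188, minus strand) are shown with the shared runs in capitals, because these genes were also among the 3 members that were higher at an unadjusted p under 0.05.

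Acad10: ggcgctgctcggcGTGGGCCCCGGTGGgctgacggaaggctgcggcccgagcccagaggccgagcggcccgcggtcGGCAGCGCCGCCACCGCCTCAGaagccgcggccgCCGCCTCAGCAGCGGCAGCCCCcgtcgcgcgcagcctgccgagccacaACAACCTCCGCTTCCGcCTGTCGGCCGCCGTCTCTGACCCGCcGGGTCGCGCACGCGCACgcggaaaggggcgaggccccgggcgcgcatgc
Acad12: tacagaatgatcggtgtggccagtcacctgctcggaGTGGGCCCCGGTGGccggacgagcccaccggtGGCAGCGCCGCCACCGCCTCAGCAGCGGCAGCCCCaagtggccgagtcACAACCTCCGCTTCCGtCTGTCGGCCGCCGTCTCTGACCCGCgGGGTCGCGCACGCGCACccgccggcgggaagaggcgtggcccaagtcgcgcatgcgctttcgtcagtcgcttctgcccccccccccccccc

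Hadha and Hadhb, which encode the α and β subunits of the mitochondrial trifunctional protein, start head to head on chromosome 5. In GENCODE, only 85 bases (chr5:30155163-30155247, written on the plus strand) lie between the annotated starts. They are shown because the subunits of the same complex were read from either side of them. The starts in RefSeq, used for the other windows, lie further apart.

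Hadha-Hadhb: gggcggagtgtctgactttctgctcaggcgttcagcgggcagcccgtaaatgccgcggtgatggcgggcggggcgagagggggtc

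HuR binds AU-rich stretches of 3′ untranslated regions. The 7 letters TATTTAT, looked for on the transcribed strand only, occurred in the 3′ untranslated region of 6 of the 39 members (15.4%), namely Acot12, Acot4, Cpt1a, Cpt2, Pdk4 and Vnn1, against 27.1% of the 11823 tested genes with an annotated region. The members' regions were also shorter, with a median of 750 against 956 bases. Per kilobase, the members had 0.163 copies and all genes 0.283. The only copy in Vnn1, the member with the largest difference between the groups at an unadjusted p under 0.05, starts at base 351 of its 689-base region and is shown in capitals with 10 bases on each side.

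Vnn1: ggctattaagTATTTATctcaacattt

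To ask how abundant each step was, the CPM of each gene was divided by its length in kilobases of exon. This length joins the exons of all annotated transcripts and can exceed that of the transcript made in liver, which lowers the value. It was 8192 bases for Acad9 and 6516 for Acad12, against 1516 for Acaa2 and 1164 for Etfb, so the order is approximate. In the controls, the peroxisomal thiolase Acaa1b stood first at 1864 ± 521 CPM per kilobase (SD, n = 2), and the mitochondrial thiolase Acaa2 came next at 712 ± 54.0 CPM per kilobase. Their values did not overlap between any of the mice. The electron transfer flavoprotein subunits Etfb (317 ± 59.5) and Etfa (198 ± 2.84), which take electrons from the acyl-CoA dehydrogenases, followed, with Acadvl, the very-long-chain acyl-CoA dehydrogenase, at 187 ± 10.8 CPM per kilobase. Acadvl and Etfa differed by about their spread. The peroxisomal multifunctional enzymes Hsd17b4 (155 ± 9.28) and Ehhadh (126 ± 14.6) and the long-chain dehydrogenase Acadl (121 ± 9.63) came after them, and the levels of Ehhadh and Acadl did not differ beyond their spread. At the lower end of the order were Acad9 (4.63 ± 0.06), Acad12 (2.30 ± 0.41) and Pdk4, a kinase that turns off pyruvate dehydrogenase, at 1.16 ± 0.61 CPM per kilobase. The 39 genes together took between 1.22% and 1.43% of all counted reads, and the lowest and the highest share both belonged to control mice.

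**Figure D1:**
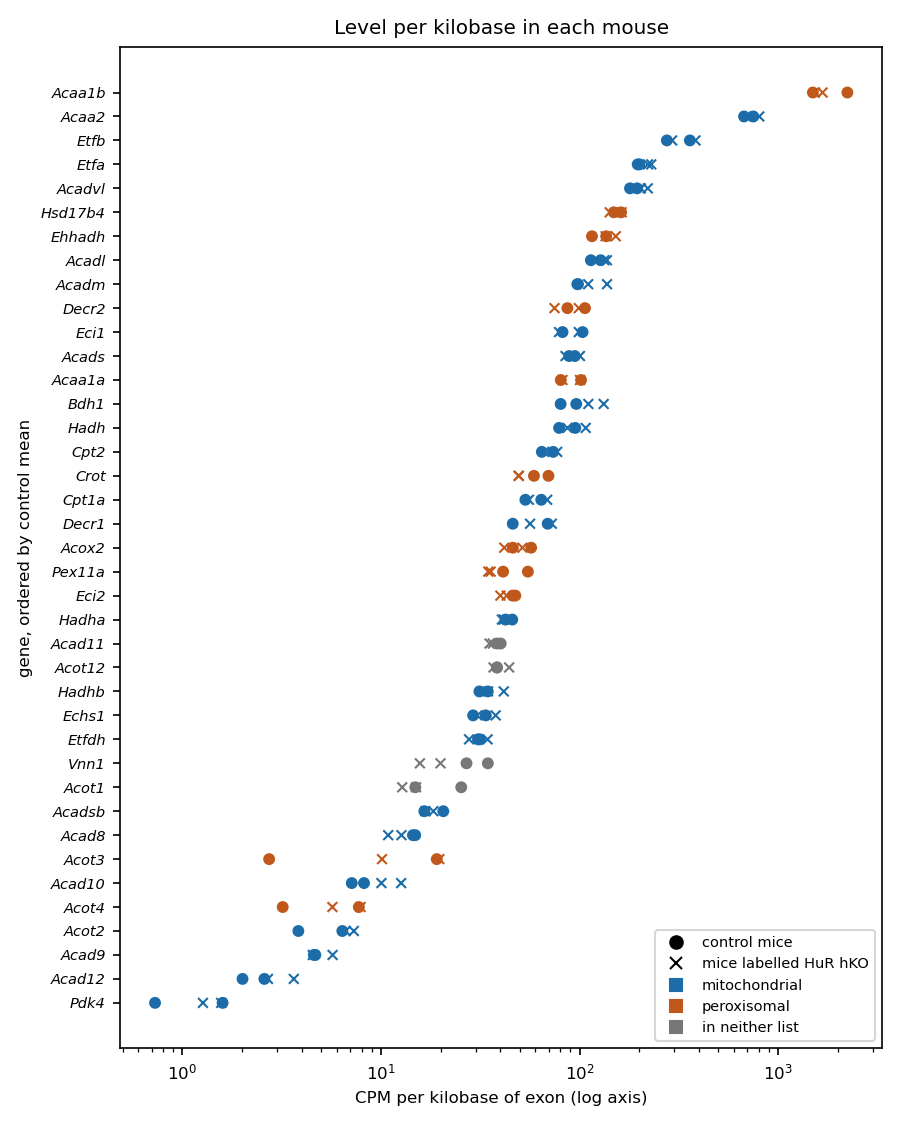
Level of each member in CPM per kilobase of exon (log axis), with circles for the 2 control mice and crosses for the 2 mice labelled HuR hKO, ordered by the control mean and coloured by place of the enzyme. Levels run from 1.16 CPM per kilobase for Pdk4 to 1864 for Acaa1b in the controls, and the circles of Acot3 lie far apart.

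The main comparison asked whether these genes differed between control livers and livers labelled HuR hKO after WDSW feeding. Most members were close to equal. No member passed an adjusted p of 0.05 in the edgeR quasi-likelihood test over all 13001 genes, where 3 genes (0.0231%) passed. At the same adjusted p, DESeq2 called 85 of the 13001 genes, the edgeR exact test 120 and limma-voom 2. DESeq2 and the edgeR exact test each called 1 member, Vnn1, and limma-voom called 0. At an unadjusted p under 0.05, where 7.43% of all genes lay, 3 members were higher (Acad10, Acad12 and Bdh1; 7.69% of the members, beside 4.04% of all genes) and 4 were lower (Acad8, Crot, Pex11a and Vnn1; 10.3%, beside 3.39% of all genes). With the fold of at least 1.8 that the study also asked for, 0 members were higher and 0 lower, against 1.21% and 0.915% of all genes. For 34 of the 39 members the 95% interval of the difference lay within a 2-fold change in either direction, and for the other 5 it reached past 2-fold.

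The median log2 fold change of the 39 members was 0.08, and that of all genes was 0.002. The groups did not overlap for 9 members that were higher (23.1%) and 7 that were lower (17.9%), shares near those of all genes (19.3% and 18.8%). With 2 mice against 2, an exact permutation test of a single gene cannot go below p = 0.333. For 23 members the difference between the groups was smaller than that between the 2 control mice, and for 13 it was larger than the difference within either pair of mice.

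**Figure D2:**
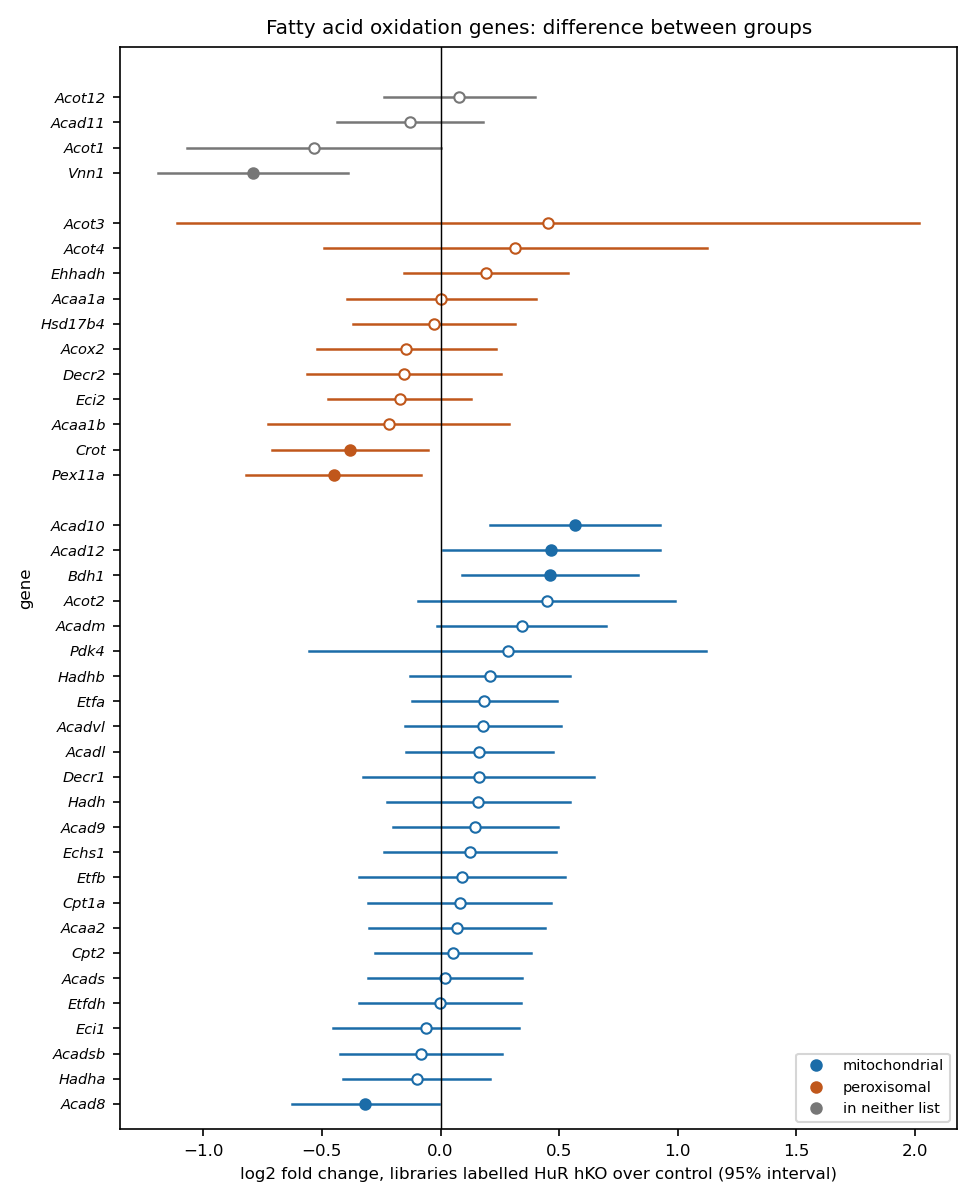
Fitted log2 fold change of each member, libraries labelled HuR hKO over control, with its 95% interval (n = 2 mice per group) and filled points for an unadjusted p under 0.05. Most intervals cross 0, and the filled points are Acad10, Acad12 and Bdh1 on the right and Acad8, Crot, Pex11a and Vnn1 on the left.

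The members moved together between mice of the same group. Of the 39, 33 were higher in control mouse 2 than in control mouse 1, and 35 were higher in mouse 4 than in mouse 3, while 49.5% of all tested genes were higher in each case. The median log2 ratio over the members was 0.20 between the control mice and 0.24 between mice 4 and 3, which is larger than the median difference between the groups. Mouse 1 held the lowest value of 22 members and mouse 4 the highest value of 24. The share of reads from genes of the mitochondrial genome was 7.08% and 7.32% in mice 1 and 2 and 6.56% and 7.64% in mice 3 and 4, thus also higher in mice 2 and 4, and its part in these values was not tested.

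**Figure D3:**
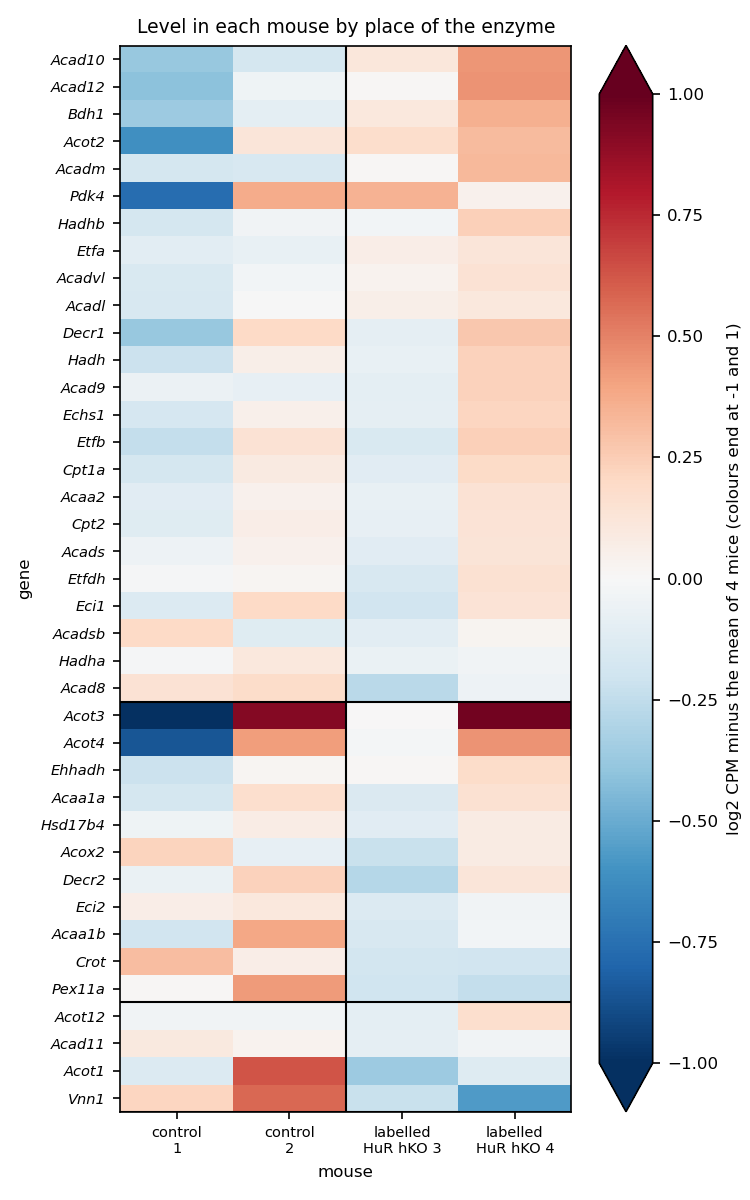
Log2 CPM of each member in each mouse minus the mean of the 4 mice, with black lines between mitochondrial (top), peroxisomal (middle) and other members (bottom) and between the groups. Mouse 1 is lowest in 22 members and mouse 4 highest in 24, and Acot3 runs past the colour scale in control mouse 1.

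The carnitine shuttle enzymes differed by less than the spread between mice. Cpt1a, the outer-membrane carnitine palmitoyltransferase at which entry into mitochondria is controlled, stood at 408 and 490 CPM in the controls and at 425 and 525 CPM in the mice labelled HuR hKO. The groups overlapped, and the log2 fold change was 0.08 ± 0.17 (SE, edgeR adjusted p = 0.940). Cpt2, which rebuilds the acyl-CoA on the inner membrane, stood at 155 and 176 CPM against 159 and 184 CPM, with a log2 fold change of 0.05 ± 0.14 (edgeR adjusted p = 0.960). Of the 6 tested carnitine genes that are not members, 2 lay above and 4 below 0, and 0 had an unadjusted p under 0.05 in the edgeR test.

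The acyl-CoA dehydrogenases, which make the trans double bond that opens each round, leaned upward, with 7 of 10 above 0 and a median log2 fold change of 0.15. Acadm, the medium-chain enzyme, had nearly equal control values of 381 and 385 CPM, and both mice labelled HuR hKO lay above them at 433 and 538 CPM. Its log2 fold change was 0.34 ± 0.16 (SE, 95% interval -0.01 to 0.70; edgeR unadjusted p = 0.0577, adjusted p = 0.674), and without mouse 4 it was 0.18. The long-chain Acadl (229 and 256 CPM against 267 and 275 CPM, log2 fold change 0.16 ± 0.13, edgeR adjusted p = 0.829) and the very-long-chain Acadvl (482 and 524 CPM against 547 and 592 CPM, 0.18 ± 0.14, adjusted p = 0.823) were also higher in each mouse labelled HuR hKO than in each control. Acads, the short-chain enzyme, differed least of these, at 0.02 with overlapping groups, and Acadsb, Acad9 and Acad11 lay between -0.13 and 0.15.

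Acad10 had the largest log2 fold change of all members that were higher. It stood at 43.3 and 49.9 CPM in the controls and at 61.0 and 76.7 CPM in mice 3 and 4, so that every mouse labelled HuR hKO was above both controls. The log2 fold change was 0.57 ± 0.16 (SE, 95% interval 0.21 to 0.92; edgeR unadjusted p = 0.00656, adjusted p = 0.427). Acad12, its neighbour with the similar upstream sequence shown above, stood at 13.1 and 16.9 CPM against 17.6 and 23.7 CPM, with control mouse 2 close to mouse 3. Its log2 fold change was 0.47 ± 0.20 (edgeR unadjusted p = 0.0461, adjusted p = 0.654). Without mouse 4 the values of Acad10 and Acad12 were 0.39 and 0.23, and without control mouse 1 they were 0.45 and 0.28. Reads of related genes such as these may be split between them, so the separate values are uncertain to that extent. Both genes were higher in mouse 2 than in mouse 1 and in mouse 4 than in mouse 3.

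Acad8, the isobutyryl-CoA dehydrogenase of valine breakdown, went the other way. It was at 60.1 and 61.7 CPM in the controls and at 45.1 and 52.6 CPM in the mice labelled HuR hKO, without overlap. The log2 fold change was -0.32 ± 0.13 (SE, edgeR unadjusted p = 0.0458, adjusted p = 0.654). Without mouse 3 it was -0.23. With all mice, the unadjusted p of Acad8 was 0.0842 with DESeq2 and 0.0707 with the edgeR exact test.

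The enzymes that complete the round were near 0. Hadha, the trifunctional subunit with the hydratase and dehydrogenase activities, stood at 370 and 400 CPM against 355 and 363 CPM, and its log2 fold change was -0.10 ± 0.14 (SE, edgeR adjusted p = 0.903). Hadhb, the thiolase subunit, stood at 207 and 228 CPM against 228 and 274 CPM, with control mouse 2 just under mouse 3 (0.21 ± 0.15, edgeR adjusted p = 0.787). The head-to-head pair thus lay on opposite sides of 0, each with a 95% interval that held 0. The ratio of Hadhb to Hadha per kilobase, which does not depend on the scaling of the libraries, was 0.740 and 0.753 in the controls and 0.851 and 0.999 in the mice labelled HuR hKO, a difference for which the exact two-sided permutation test gives p = 0.333, the smallest it can give. This ratio was chosen after the values were seen, and the exons of Hadha overlap those of Garem2 on the other strand, so reads there cannot be assigned without strand. The same holds for other members, among them Bdh1 (Gm15743), Crot (Gm37153), Acaa1a (Myd88), Acaa1b (Dlec1), Acadvl (Dvl2) and Echs1 (Paox). Exons of Crot, Acot3 and Acot4 also overlap those of another gene on the same strand.

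Acaa2, the mitochondrial thiolase, stood at 1021 and 1137 CPM against 1046 and 1218 CPM, and the groups overlapped (log2 fold change 0.07 ± 0.16, SE, edgeR adjusted p = 0.95). Hadh, Echs1, Decr1 and Eci1 lay between -0.06 and 0.16, and each overlapped between the groups. Of the electron transfer proteins, Etfa stood at 360 and 368 CPM against 406 and 421 CPM without overlap, with a log2 fold change of 0.18 ± 0.13 (SE, edgeR adjusted p = 0.801), while Etfb and Etfdh, the oxidoreductase that passes the electrons to the respiratory chain, overlapped.

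Bdh1 makes β-hydroxybutyrate from acetoacetate, the last step of ketogenesis, and was the only member of that pathway. It stood at 312 and 374 CPM in the controls and at 431 and 515 CPM in the mice labelled HuR hKO. Both of the latter were above both controls. The log2 fold change was 0.46 ± 0.16 (SE, 95% interval 0.09 to 0.83; edgeR unadjusted p = 0.0207, adjusted p = 0.574), and it was 0.32 without control mouse 1 and 0.33 without mouse 4. Of the 8 other ketone body genes, 5 lay above and 3 below 0, and 0 had an unadjusted p under 0.05 in the edgeR test.

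The peroxisomal members leaned downward, with 4 of 11 above 0. Crot, which moves medium-chain acyl groups onto carnitine for export to mitochondria, stood at 381 and 322 CPM in the controls and at 270 and 269 CPM in the mice labelled HuR hKO, clear of the controls. Its log2 fold change was -0.38 ± 0.14 (SE, 95% interval -0.71 to -0.05; edgeR unadjusted p = 0.0282, adjusted p = 0.591). It was -0.27 without control mouse 1 and -0.50 without control mouse 2. Pex11a, a membrane protein of peroxisome division, stood at 131 and 175 CPM against 114 and 111 CPM, again without overlap. Its log2 fold change was -0.45 ± 0.16 (edgeR unadjusted p = 0.0226, adjusted p = 0.574), and it was -0.23 without control mouse 2. The mice labelled HuR hKO agreed closely in both genes, and the spread lay between the controls, which went opposite ways in Crot and Pex11a.

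The oxidation steps of the peroxisome overlapped between the groups in all 5 genes. Ehhadh, the L-bifunctional enzyme, stood at 344 and 406 CPM against 403 and 454 CPM (log2 fold change 0.19 ± 0.15, SE, edgeR adjusted p = 0.821). Hsd17b4, the D-bifunctional enzyme, stood at 506 and 551 CPM against 483 and 555 CPM (-0.03 ± 0.15, edgeR adjusted p = 0.981). Acox2, the oxidase of branched chains and bile acid intermediates, stood at 211 and 171 CPM against 155 and 191 CPM (-0.14 ± 0.16, edgeR adjusted p = 0.878). Unlike most members, Acox2 was lower in control mouse 2 than in control mouse 1.

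The paralogous thiolases Acaa1a and Acaa1b differed in their spread. Acaa1b was at 2936 and 4380 CPM in the controls and at 3005 and 3285 CPM in the mice labelled HuR hKO, so that control mouse 2 stood above the 3 other mice. Its log2 fold change of -0.22 ± 0.22 (SE, edgeR adjusted p = 0.861) became 0.10 without that mouse. Acaa1a was at 355 and 449 CPM against 362 and 444 CPM, a log2 fold change of 0.004 ± 0.17 (edgeR adjusted p = 0.997). The reads of these near-identical genes may be split between them, and their separate values are uncertain to that extent. Eci2, an isomerase for unsaturated chains, did not overlap (255 and 263 CPM against 221 and 238 CPM, log2 fold change -0.17 ± 0.13, edgeR adjusted p = 0.815), and Decr2, the peroxisomal dienoyl reductase, did.

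Of the 16 further genes of peroxisomal oxidation, 7 lay above 0 and 9 below. At an unadjusted p under 0.05 in the edgeR test, 2 were higher (12.5%, beside 4.04% of all genes) and 1 was lower (6.25%, beside 3.39%). These were Abcd2, a very-long-chain acyl-CoA transporter (log2 fold change 0.74), Acot8, a peroxisomal thioesterase (0.53), and Nudt7, a peroxisomal CoA diphosphatase (-0.43), with adjusted p of 0.648, 0.501 and 0.574. The 15 genes of peroxisome biogenesis beside Pex11a gave 8 above and 7 below 0, and 0 at an unadjusted p under 0.05, with a median log2 fold change of 0.03.

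The acyl-CoA thioesterases, which release free fatty acid from acyl-CoA, held the member with the widest 95% interval, Acot3. Acot1, Acot2, Acot3 and Acot4 lie side by side on chromosome 12 and are close paralogs, so that their reads may be split between them. Acot3, a peroxisomal enzyme, was at 9.41 CPM in control mouse 1 and at 65.7 CPM in control mouse 2, and both mice labelled HuR hKO, at 34.8 and 67.7 CPM, fell within or just above that range. Its log2 fold change of 0.45 ± 0.68 (SE, edgeR adjusted p = 0.910) had an interval from -1.11 to 2.02, and it was 2.45 without control mouse 2 and -0.37 without control mouse 1. Acot4, also peroxisomal, was at 21.4 and 51.7 CPM against 38.0 and 52.7 CPM, with mouse 1 again the lowest.

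Acot1, the cytosolic member of the cluster, was at 58.4 and 99.4 CPM in the controls and at 50.2 and 58.9 CPM in the mice labelled HuR hKO. Mouse 4 was level with control mouse 1, and mouse 2 stood above the other 3. The log2 fold change was -0.53 ± 0.23 (SE, edgeR unadjusted p = 0.0510, adjusted p = 0.670), and it was -0.10 without control mouse 2. Acot2, the mitochondrial copy, was at 8.43 and 14.0 CPM against 14.6 and 16.0 CPM (0.45 ± 0.24, edgeR adjusted p = 0.709). Along this cluster Acot1 was thus the only gene below 0, and the lowest value of Acot2, Acot3 and Acot4 was that of control mouse 1. Acot12, a cytosolic acetyl-CoA hydrolase on chromosome 13, overlapped between the groups with a log2 fold change of 0.08.

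Vnn1 had the smallest p of all members. It encodes vanin-1, a pantetheinase on the hepatocyte surface that recycles a precursor of coenzyme A. Its level was 65.2 and 83.5 CPM in control mice 1 and 2 and 48.2 and 38.0 CPM in mice 3 and 4. Both mice labelled HuR hKO lay below both controls, and it was among the 4 members that were lower in mouse 4 than in mouse 3. The log2 fold change was -0.79 ± 0.17 (SE, 95% interval -1.19 to -0.39; edgeR quasi-likelihood test, unadjusted p = 0.00184, adjusted p = 0.268). It lay between -0.99 and -0.60 when each mouse was left out. Its adjusted p was 0.0108 with no filter on low counts (edgeR quasi-likelihood test), 0.0241 with DESeq2 and 0.0220 with the edgeR exact test. These settings called 161 of 21432, 85 of 13001 and 120 of 13001 genes, against 3 of 13001 in the main test. Pdk4, which favours fatty acid over glucose oxidation and is raised by fasting, was covered by only 34 to 84 reads, and its levels of 2.56 and 5.60 CPM against 5.51 and 4.46 CPM overlapped (0.28 ± 0.36, edgeR adjusted p = 0.893).

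**Figure D4:**
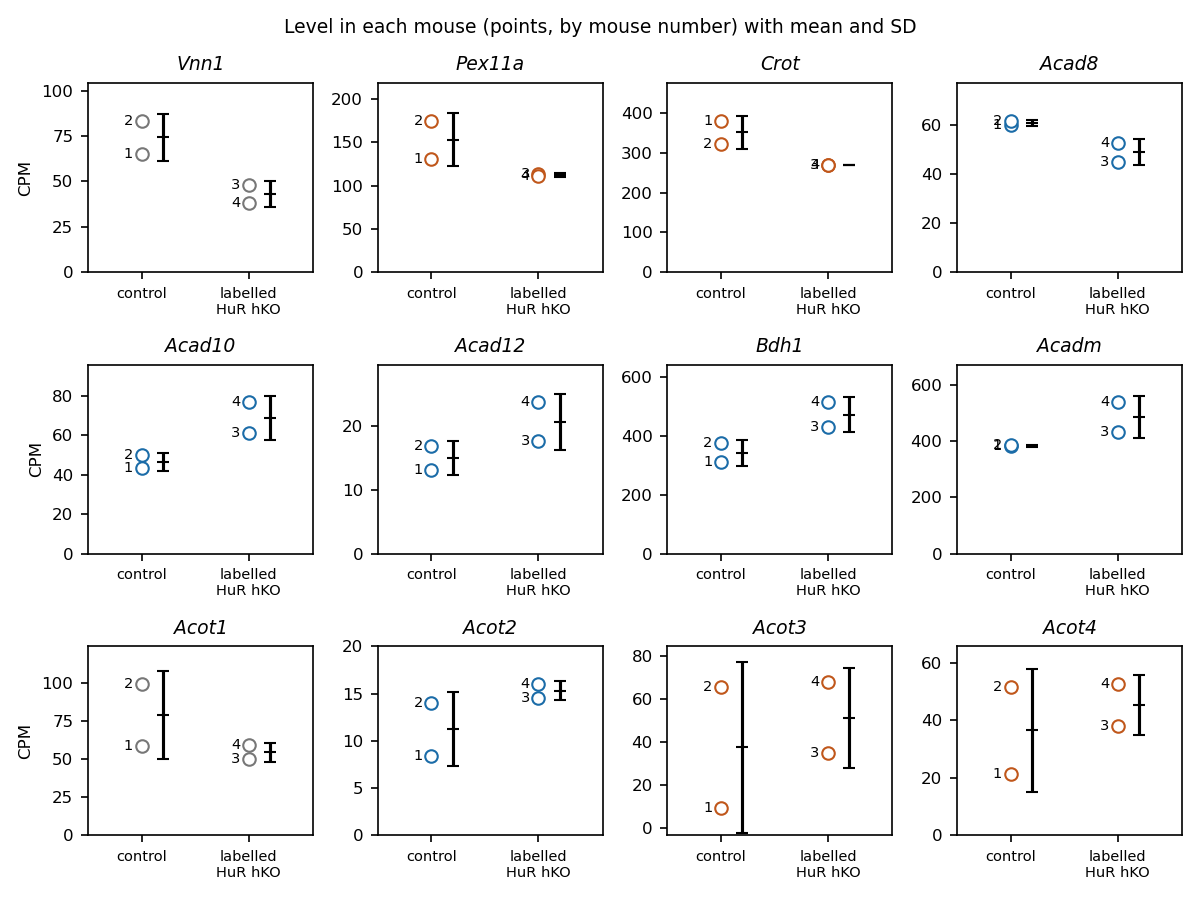
CPM of 12 members in each mouse (open points with the mouse number), with the mean and SD of each group beside them (n = 2 mice per group). Vnn1, Pex11a, Crot and Acad8 are lower and Acad10, Acad12, Bdh1 and Acadm higher in both mice labelled HuR hKO than in both controls, while Acot3 and Acot4 overlap.

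The last comparison set mitochondrial against peroxisomal members. Of the 24 mitochondrial members, 19 (79.2%) had a log2 fold change above 0 and the median was 0.15. Of the 11 peroxisomal members, 4 (36.4%) lay above 0 and the median was -0.14. All genes gave 50.3% above 0. The groups did not overlap for 9 mitochondrial members that were higher and 2 that were lower, and for 0 peroxisomal members that were higher and 3 that were lower, beside the 19.3% and 18.8% of all genes. The genes are not replicates, and these counts are a description with no test.

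Within each mouse the lists were compared by the median, over the members, of log2(CPM + 0.5) minus the mean of the 4 mice. The mitochondrial median was -0.16 and 0.04 in control mice 1 and 2 and -0.08 and 0.17 in mice 3 and 4, and the peroxisomal median -0.07 and 0.17 against -0.14 and 0.08. Each list on its own overlapped between the groups, since mice 1 and 3 were low and mice 2 and 4 high in both. The peroxisomal median minus the mitochondrial median was 0.10 and 0.12 in the controls and -0.07 and -0.09 in the mice labelled HuR hKO, and this difference did not overlap between the groups. From the fitted fold changes the difference of the medians was -0.30. It stayed between -0.22 and -0.20 when any 1 mouse was left out, whereas the mitochondrial median was -0.03 without mouse 4 and 0.01 without control mouse 1, and the peroxisomal median 0.04 without control mouse 2 and 0.02 without mouse 3. The difference was -0.23 with Eci2 counted as mitochondrial and -0.25 without the 8 mitochondrial members outside straight-chain oxidation. The peroxisomal list was not trimmed in the same way. Its 5 oxidation steps alone had a median log2 fold change of -0.03, nearer to the trimmed mitochondrial median of 0.11.

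**Figure D5:**
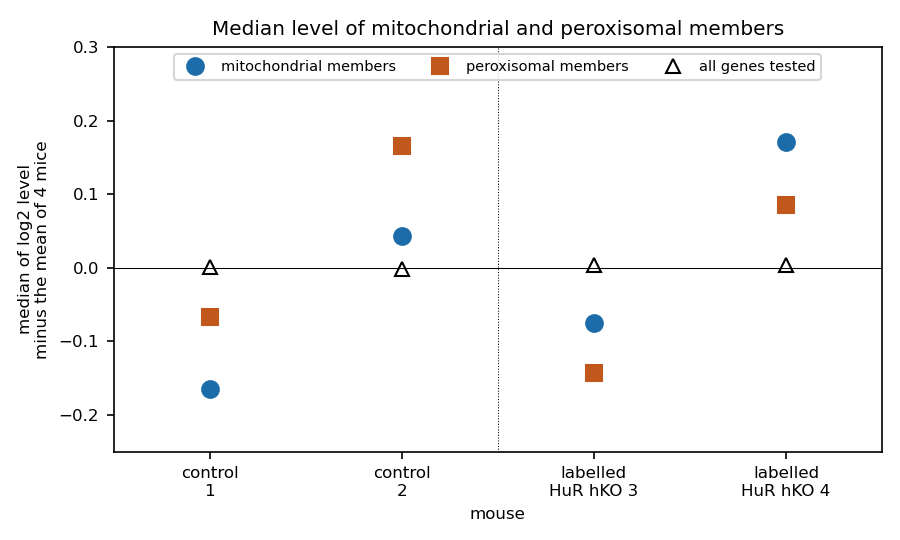
Median over the members of each list of log2(CPM + 0.5) minus the mean of the 4 mice, with circles for the 24 mitochondrial members, squares for the 11 peroxisomal members and triangles for all tested genes, 1 point for each mouse. The squares lie above the circles in both control mice (by 0.10 and 0.12) and below them in both mice labelled HuR hKO (by 0.07 and 0.09).

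The regulators and other targets of the pathway were read from lists of named genes. Ppara, the receptor itself, stood at 66.7 and 64.7 CPM in the controls and at 74.5 and 106 CPM in the mice labelled HuR hKO, without overlap, and its log2 fold change was 0.46 ± 0.17 (SE, edgeR unadjusted p = 0.0304, adjusted p = 0.603). Ppargc1a, a coactivator of oxidation genes, overlapped (0.19 ± 0.23, edgeR adjusted p = 0.888). Acaca, whose product makes malonyl-CoA and so restrains Cpt1a, was at 115 and 113 CPM against 173 and 141 CPM (0.46 ± 0.14, edgeR unadjusted p = 0.0122, adjusted p = 0.511). Ppara and Acaca were the only 2 of the 17 regulators with an unadjusted p under 0.05 (edgeR). Both were higher, which is 11.8% of the list, beside 4.04% of all genes.

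Of the 19 tested PPARα targets that are not members, 9 lay above and 10 below 0, with a median of -0.04. Cyp4a14, a fatty acid ω-hydroxylase, was at 158 and 71.2 CPM in the controls and at 255 and 321 CPM in the mice labelled HuR hKO (log2 fold change 1.33 ± 0.32, SE, edgeR unadjusted p = 0.00320, adjusted p = 0.352). Without control mouse 1 it was 2.00, and without control mouse 2 it was 0.87. Fgf21, a liver hormone of fasting, was at 0.978 and 1.79 CPM against 3.28 and 2.71 CPM (1.10 ± 0.40, edgeR unadjusted p = 0.0236, adjusted p = 0.574). Cyp4a14, Fgf21 and Ppara lay above 0. Of the members, Vnn1, Crot, Pex11a and Acot1, known targets of the same receptor, lay below it. These 4 do not stand for all members, of which 24 lay above 0 and 15 below. Among those above were Acadm (0.34), Ehhadh (0.19) and Cpt1a (0.08). Over all 82 tested pathway genes that are not members, 45 lay above 0 (54.9%, beside 50.3% of all genes). At an unadjusted p under 0.05 (edgeR), 6 were higher and 1 was lower. These are 7.32% and 1.22%, beside 4.04% and 3.39% of all genes.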

How the data were processed

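RNA-seq of whole liver was analysed for 4 male mice, 2 control and 2 labelled HuR hKO. The deposited values are whole-number read counts per Ensembl gene, made by the authors from a commercial sequencing run. The submitters' processing notes name RSEM and GRCm38 with no version or role, so rounded estimates cannot be told from counts, and the aligner, annotation and strand are not given in the sources used here. Groups came from the sample titles. Of 46603 identifiers, 46005 were matched to a symbol. The members and gene lists were chosen with earlier results of these data known.

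Genes were kept with edgeR's filterByExpr (minimum count 10, minimum total 15), scaled by TMM (factors 0.957 to 1.04) and tested with the quasi-likelihood F-test of edgeR 4.0.16 (R 4.3.3) over all 13001 genes kept, with Benjamini-Hochberg adjustment. A call needed an adjusted p under 0.05. SE was taken from the log2 fold change and its F statistic, and 95% intervals from the t distribution. The scripts were tested on simulated data. Levels between genes used exon lengths of GENCODE release M21. Promoter windows came from RefSeq (GRCm38.p6), and gene places and 3′ untranslated regions from GENCODE.

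All members were named, with full statistics for those at an unadjusted p under 0.05 and the main steps of the pathway. Some genes of the pathway lists are not reported here. Alternatives were other scalings and filters, DESeq2 1.42.0, limma-voom (limma 3.58.1), the edgeR exact test, robust fitting and leaving out each mouse. Totals of 13032095 to 19715577 reads put 3 reads at 0.152 to 0.230 CPM. Nothing in the labels says more than that the samples were separate mice, so p-values rest on the spread between mice. In the quasi-likelihood test, the spread of each gene is moderated with that of all genes. An SE can thus exceed the spread of its own gene. Etfa, which differed by 0.03 and 0.05 log2 within the groups, had an SE of 0.13.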

Additional observations from a re-analysis of the deposited data

How the results depend on the processing

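With 2 mice in each group, the members' results depended most on single mice. In 9 settings that kept all mice (other scaling factors, filters on low counts, tests), each member kept its direction except Acaa1a, which was -0.0066 with upper quartile factors, -0.0066 with no scaling beyond library size, -0.0088 with no filter on low counts and -0.0059 with at least 10 counts in every sample. The number of members higher at an unadjusted p under 0.05 was 3, with 2 under upper quartile factors (Acad12 lost), 4 with no scaling beyond library size (Acadm gained) and 5 with no filter. DESeq2 also gave 3, with Acadm in place of Acad12. The number lower was 4, and 5 with no scaling, no filter or at least 10 counts in every sample (Acot1 gained). With DESeq2 and the edgeR exact test it was 4, with Acot1 in place of Acad8. Over all genes and both directions, 966 of 13001 had such a p in the main test. It was 575 with DESeq2, 880 with no scaling and 1466 of 21432 with no filter. The number of members at an adjusted p under 0.05 was 0, and 1 (Vnn1) with no filter, 1 with DESeq2 and 1 with the edgeR exact test. Over all genes it was 3 of 13001 in the main test, 161 of 21432 with no filter, 85 with DESeq2 and 120 with the edgeR exact test. The peroxisomal minus mitochondrial median was -0.23 with Eci2 counted as mitochondrial and -0.25 without 8 mitochondrial members. The cause of these changes was not tested.

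When each mouse was left out in turn, the mitochondrial median ranged from -0.030 to 0.24 and the peroxisomal from -0.23 to 0.037. Their difference ranged from -0.22 to -0.20, beside -0.30 with all mice. Elavl1 stayed above 0, from 0.33 to 0.48. The direction of 21 members and of 1 other gene turned, and that of 18 members did not. Log2 fold changes then ranged as follows: Cpt1a from -0.079 to 0.22, Cpt2 from -0.059 to 0.15, Acads from -0.11 to 0.12, Acadsb from -0.23 to 0.073, Acad9 from -0.029 to 0.28, Hadh from -0.0011 to 0.30, Acaa2 from -0.044 to 0.16, Decr1 from -0.11 to 0.48, Eci1 from -0.23 to 0.12, Etfb from -0.12 to 0.30, Etfdh from -0.16 to 0.13, Echs1 from -0.037 to 0.25, Pdk4 from -0.19 to 0.96, Acaa1a from -0.17 to 0.18, Acaa1b from -0.49 to 0.10, Acox2 from -0.30 to 0.0036, Hsd17b4 from -0.13 to 0.052, Decr2 from -0.37 to 0.018, Acot3 from -0.37 to 2.45, Acot4 from -0.20 to 1.09, Acot12 from -0.057 to 0.19, Ppargc1a from -0.059 to 0.37. Cyp4a14 ranged from 0.87 to 2.00. A lone mouse was assumed to vary like the pair of the other group. No paired analysis was possible because the groups share no replicate numbers.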

Other observations

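A few genes that are not members set control mouse 1 apart, and they were picked after their values were seen. Lpin1, a phosphatidate phosphatase and coactivator of fatty acid oxidation genes, stood at 394 CPM in control mouse 1 and at 48.0, 119 and 123 CPM in mice 2, 3 and 4. Krt19, a keratin of bile duct cells, stood at 12.2 CPM in that mouse and at 0.373 to 1.81 CPM in the others, and Acta2, smooth muscle actin, at 20.7 CPM against 4.48 to 9.40 CPM. Over all tested genes, 36 were more than 2-fold above and 50 more than 2-fold below the other mice in control mouse 1, against 9 and 28 in control mouse 2, 6 and 31 in mouse 3 and 16 and 11 in mouse 4. Among the members, only Acot3 lay more than 2-fold apart in a single mouse, below the others in control mouse 1.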
